A study of Mus musculus with 12 samples.

Results

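The genes described here are 33 mouse genes of the p53 pathway: Trp53, which encodes p53, 3 of its regulators and 29 genes known as p53 targets or effectors. They were chosen by symbol, with earlier results of these data known, and matched to Ensembl identifiers through GENCODE release M21 on mm10. All 33 were among the 55471 genes of the count table. A filter on low counts left 30 of them among the 17197 genes tested. Perp, Ddit4l and Ephx1 did not pass it. Perp had 1 count and Ddit4l 0 counts over the 12 libraries, which for Ddit4l allows a level of up to 0.00346 CPM from counting error alone, CPM being the count scaled to library size. Ephx1 had 25 counts in all and at most 0.155 CPM in a line.

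RNA sequencing was done on 12 lines of Ba/F3, a mouse blood cell line labelled as pro-B cells whose growth normally needs the cytokine interleukin-3 (IL-3). The study compared 3 groups of 4 lines, named by the labels as biologically independent. MSCV lines held the retroviral vector with no insert and were kept in 0.5 ng/ml murine IL-3. The BCR-ABL1 and SFPQ-ABL1 lines each expressed a fusion of the ABL1 tyrosine kinase, had been transformed by it, and were kept without IL-3. No line received a drug, and all cells were harvested in exponential growth. The fusion and the absence of IL-3 cannot be told apart in either comparison with MSCV, while both fusion groups grew without the cytokine. Gene totals ran from 59355018 to 80616227 counts per library, so that 1 CPM stood for 61.1 to 82.2 counts after scaling. Of 14 pro-B marker genes, 11 were under 1 CPM in every library, among them Pax5, Ebf1 and Rag1, while Cd79a, Cd79b and Ptprc were present. The lines are therefore called by their name and not by the labelled cell type.

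The transcription factor p53 is kept low in unstressed cells by the ubiquitin ligase Mdm2 and its partner Mdm4. DNA damage, oncogene signalling, ribosomal stress or lack of nucleotides releases it, and it then raises genes for cell cycle arrest, cell death, DNA repair and metabolism. Mdm2 is itself a target, so the pathway holds a feedback loop. Control of p53 acts largely on the protein, which was not measured here.

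The element through which p53 binds DNA is a pair of 10-base half-sites, and promoter sequences are shown for members that hold an exact half-site match and changed between BCR-ABL1 and MSCV lines. RefSeq promoters on GRCm38.p6, each of 300 bases from 250 before to 50 after a start site, were at hand for 26 of the 33 members, in 33 windows. Ddb2, Perp, Rrm2b, Tnfrsf10b, Trp53inp1, Xpc and Zmat3 were not analysed in this way. The p53 half-site consensus, which reads the same on both strands, was matched exactly in 12 of the 26 genes and in 13 of the 33 windows, against 8.36% of the 32851 promoters of all genes. Its CATG core repeated with 6 bases between (CATG, any 6 bases, CATG) was found in 0.712% of all promoters and, among the members, in the upstream promoter of Cdkn1a alone. That promoter also held a pair of half-sites with 12 bases between them, an arrangement with up to 13 bases between that was present in 24 of all 32851 promoters. Capitals mark half-site matches and, in Cdkn1a, also the repeated core, which overlaps the second half-site. The windows are chr17:29090729-29091028, plus strand for Cdkn1a, chr10:117710709-117711008, minus strand for Mdm2, chr11:40755237-40755536, minus strand for Ccng1, chr7:78895677-78895976, plus strand for Aen, chr13:96519138-96519437, minus strand for Polk and chr10:41887189-41887488, plus strand for Sesn1. Each is written 5′ to 3′ along its gene.
Cdkn1a: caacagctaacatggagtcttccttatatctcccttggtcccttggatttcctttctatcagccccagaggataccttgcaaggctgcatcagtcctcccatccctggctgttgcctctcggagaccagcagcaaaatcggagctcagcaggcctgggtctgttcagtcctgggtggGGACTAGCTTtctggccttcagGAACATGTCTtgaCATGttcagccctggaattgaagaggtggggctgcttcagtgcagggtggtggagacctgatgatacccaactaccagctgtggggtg
Mdm2: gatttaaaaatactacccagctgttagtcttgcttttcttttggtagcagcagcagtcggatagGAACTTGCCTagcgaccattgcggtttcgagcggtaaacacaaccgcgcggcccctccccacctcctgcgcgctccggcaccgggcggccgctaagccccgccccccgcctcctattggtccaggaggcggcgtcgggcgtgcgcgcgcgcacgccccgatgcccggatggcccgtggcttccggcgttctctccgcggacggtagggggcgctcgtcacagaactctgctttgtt
Ccng1: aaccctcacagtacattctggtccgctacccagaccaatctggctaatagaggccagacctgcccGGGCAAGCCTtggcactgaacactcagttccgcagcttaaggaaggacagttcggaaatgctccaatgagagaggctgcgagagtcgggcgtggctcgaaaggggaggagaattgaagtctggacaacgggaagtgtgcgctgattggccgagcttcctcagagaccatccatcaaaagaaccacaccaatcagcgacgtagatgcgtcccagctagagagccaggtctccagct
Aen: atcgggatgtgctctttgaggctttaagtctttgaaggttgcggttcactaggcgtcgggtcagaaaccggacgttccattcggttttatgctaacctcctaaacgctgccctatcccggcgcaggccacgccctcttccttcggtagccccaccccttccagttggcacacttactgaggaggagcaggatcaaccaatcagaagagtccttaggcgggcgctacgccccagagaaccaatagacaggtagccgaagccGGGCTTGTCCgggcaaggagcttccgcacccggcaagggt
Polk: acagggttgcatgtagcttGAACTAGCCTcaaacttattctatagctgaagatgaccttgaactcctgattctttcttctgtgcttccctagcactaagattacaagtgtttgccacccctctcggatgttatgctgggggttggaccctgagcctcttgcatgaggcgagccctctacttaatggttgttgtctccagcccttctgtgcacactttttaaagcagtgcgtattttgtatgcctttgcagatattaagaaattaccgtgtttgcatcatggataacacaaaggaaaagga
Sesn1: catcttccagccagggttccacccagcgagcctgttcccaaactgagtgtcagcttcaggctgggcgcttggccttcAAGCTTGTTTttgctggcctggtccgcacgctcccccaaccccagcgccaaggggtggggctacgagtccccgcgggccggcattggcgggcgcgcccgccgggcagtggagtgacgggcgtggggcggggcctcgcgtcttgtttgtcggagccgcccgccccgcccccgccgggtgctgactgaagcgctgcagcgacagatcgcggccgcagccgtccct

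The Cdkn1a half-sites begin 73 and 51 bases before the upstream start site, at position 29090979 of chromosome 17, and the repeated core begins 48 bases before it. The other Cdkn1a start site lies 2790 bases downstream, and its promoter had 0 half-site matches. The half-site begins 186 bases before the start in Mdm2, 185 in Ccng1, 231 in Polk and 173 in Sesn1. For Polk and Sesn1 this start lies inside the annotated gene and not at its 5′ end. Polk spans chr13:96480690-96542579 on the minus strand, and Sesn1 spans chr10:41809935-41908424 on the plus strand. In Aen it begins 10 bases after the start of the window shown, and the same half-site lies 121 bases before a further start site, whose window is chr7:78895808-78896107. Of the 12 genes with a half-site, 5 rose in BCR-ABL1 lines against MSCV lines, 1 fell, 5 were not called and 1 was not tested. Of the 14 without one, 6 rose, 1 fell, 6 were not called and 1 was not tested. Among all genes tested, 15.8% were called higher and 16.3% lower in that comparison. The 6 that rose include Gdf15, which passed the filter on low counts only through its BCR-ABL1 lines. A match is a description of the letters in this window and no measure of binding.

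The first question was how the pathway stood in cells growing on BCR-ABL1 as compared with cells growing on IL-3. Of the 30 members tested, 13 (43.3%) were higher and 4 (13.3%) were lower in BCR-ABL1 lines than in MSCV lines (edgeR's quasi-likelihood test, adjusted p under 0.05 over all genes). Among all 17197 genes tested, 15.8% were called higher and 16.3% lower. The higher members were Aen, Btg2, Ccng1, Cdkn1a, Eda2r, Gdf15, Mdm2, Mdm4, Phlda3, Polk, Rrm2b, Tigar and Zmat3, and the lower ones Ddb2, Fdxr, Sesn1 and Xpc. The median log2 fold change was 0.477 over the 30 members and -0.008 over all genes tested. In a test against a 1.5-fold change, 5 rose (Aen, Cdkn1a, Eda2r, Gdf15 and Tigar) and 1 fell (Sesn1), where 2.94% of all genes rose and 2.76% fell. Gdf15 passed the filter only through its BCR-ABL1 lines, so its call here and between the fusions was partly fixed by the filter. Without it 12 of 29 members were higher and 4 lower, with a median log2 fold change of 0.368. In 16 of the 30 members the lines of the groups did not overlap, against 31.6% of all genes tested, and Btg2 was the 1 called member whose lines did. Without Gdf15, 15 of 29 members had no overlap.

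Between SFPQ-ABL1 and MSCV lines the main edgeR fit (by group, after the low-count filter) called 0 of the 30 members in either direction. Among all genes, 0.814% were called higher and 0.977% lower, so that calls of any kind were rare here. An unadjusted p under 0.05 was reached by 6 members, of which Fas, Trp53inp1, Sesn1, Phlda3 and Zmat3 had lower and Tigar higher means in SFPQ-ABL1 lines. DESeq2 called 3 members lower (Fas, Sesn1 and Trp53inp1), and limma-voom called 0. With a block for line number, which the labels do not name as a batch, edgeR called Fas, Trp53inp1 and Zmat3 lower. With no filter on low counts it called Trp53inp1 lower (adjusted p = 0.0331). The lines of the groups did not overlap in 1 member, Sesn1, which was lower, against 6.24% of all genes that were lower without overlap. Without normalization factors the calls among all genes moved from 140 higher and 168 lower to 210 higher and 114 lower, and the members still had 0.

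Between the fusions, which both grew without IL-3, 14 members were lower and 3 higher in SFPQ-ABL1 than in BCR-ABL1 lines, against 12.8% lower and 13.2% higher among all genes. Without normalization factors all genes split into 2841 higher and 1750 lower in place of 2268 and 2203, and the members into 4 and 14. Of the 13 members higher in BCR-ABL1 than in MSCV lines, 11 were also higher in BCR-ABL1 than in SFPQ-ABL1 lines; the exceptions were Mdm4 and Tigar. Fas, Plk3 and Trp53inp1 were called here and not against MSCV. Ddb2, Sesn1 and Xpc were lower in BCR-ABL1 lines than in either other group. These comparisons share their BCR-ABL1 lines, so the overlap is no independent support. In a test against a 1.5-fold change, 7 were lower in SFPQ-ABL1 lines (Btg2, Cdkn1a, Eda2r, Fas, Gdf15, Phlda3 and Zmat3) and 0 higher, against 2.44% lower and 1.79% higher among all genes. Without Gdf15, 13 of 29 members were lower and 3 higher at adjusted p under 0.05. Lines of the fusion groups did not overlap in 21 of the 30 members, or in 20 of 29 without Gdf15, against 27.9% of all genes tested.

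**Figure D1:**
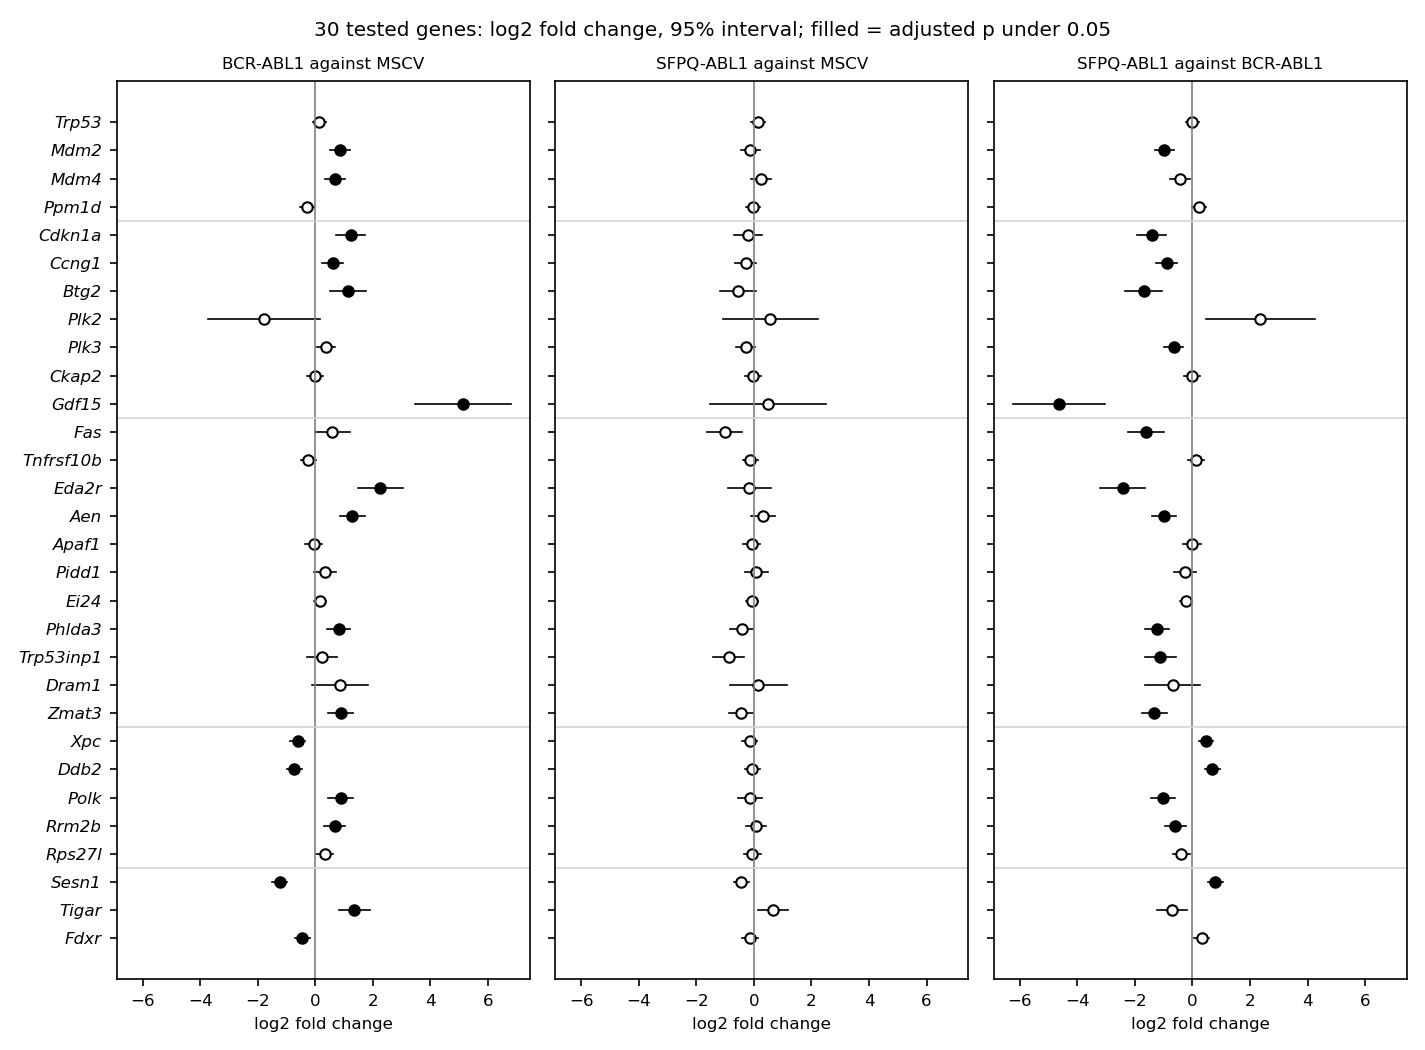
Log2 fold change of the 30 tested genes in 3 comparisons (x axis), with 95% intervals as lines, ordered by role from the p53 core to metabolism; filled points were called at adjusted p under 0.05. Filled points number 17 in the left panel, 0 in the middle and 17 in the right, and Gdf15 and Plk2 have the widest intervals.

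Among the core genes, the Trp53 transcript did not separate the groups while Mdm2 and Mdm4 were higher in BCR-ABL1 lines. Trp53 (ENSMUSG00000059552, chr11:69580359-69591873, plus strand), which encodes p53 itself, stood at 123, 106, 83.3 and 96.0 CPM in MSCV lines 1 to 4, at 119, 122, 105 and 103 CPM in BCR-ABL1 lines 1 to 4 and at 119.8, 109.9, 110.3 and 109.5 CPM in SFPQ-ABL1 lines 1 to 4. The 3 groups overlapped, with the highest and the lowest line both among the MSCV lines. Its log2 difference from MSCV was 0.14 in BCR-ABL1 lines (95% interval -0.095 to 0.378, adjusted p = 0.351) and 0.14 in SFPQ-ABL1 lines (-0.096 to 0.377, adjusted p = 0.528). Between the fusions the interval was -0.237 to 0.236.

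Mdm2 (ENSMUSG00000020184, chr10:117688875-117710758, minus strand), the ubiquitin ligase that marks p53 for breakdown, stood at 108, 101, 128 and 113 CPM in MSCV lines 1 to 4, at 150.4, 179, 251 and 232 CPM in BCR-ABL1 lines 1 to 4 and at 92.0, 88.7, 112 and 122 CPM in SFPQ-ABL1 lines 1 to 4. Every BCR-ABL1 line was above every line of the other groups, and lines 3 and 4 were the highest. Mdm2 rose 1.80-fold over MSCV (log2 0.85 ± 0.16 SE, adjusted p = 0.00136) and was 1.97-fold higher in BCR-ABL1 than in SFPQ-ABL1 lines (adjusted p = 0.000939). SFPQ-ABL1 and MSCV lines overlapped, with an interval of -0.461 to 0.215 for their log2 difference. Mdm4, which binds p53 and holds back its activity, stood at 197, 149, 249.8 and 208 CPM in MSCV lines 1 to 4, at 297, 324, 312 and 364 CPM in BCR-ABL1 lines 1 to 4 and at 219, 186, 287 and 262 CPM in SFPQ-ABL1 lines 1 to 4. All BCR-ABL1 lines were above the others, and the SFPQ-ABL1 lines spread from the middle of the MSCV lines to just below the BCR-ABL1 lines. Mdm4 rose 1.61-fold over MSCV (log2 0.69 ± 0.16 SE, adjusted p = 0.00515). It missed the threshold between the fusions (log2 -0.44 ± 0.16 SE, adjusted p = 0.0548), and passed it with DESeq2 (adjusted p = 0.0396). Ppm1d, a phosphatase that switches off p53 signalling, was at 35.5 ± 3.004 CPM in MSCV, 29.4 ± 4.86 CPM in BCR-ABL1 and 34.5 ± 1.34 CPM in SFPQ-ABL1 lines (SD, n = 4 lines in each group here and below). It was not called in any comparison. Without BCR-ABL1 line 1 it was called lower in BCR-ABL1 than in MSCV lines (adjusted p = 0.0153) and higher in SFPQ-ABL1 than in BCR-ABL1 lines (adjusted p = 0.033).

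**Figure D2:**
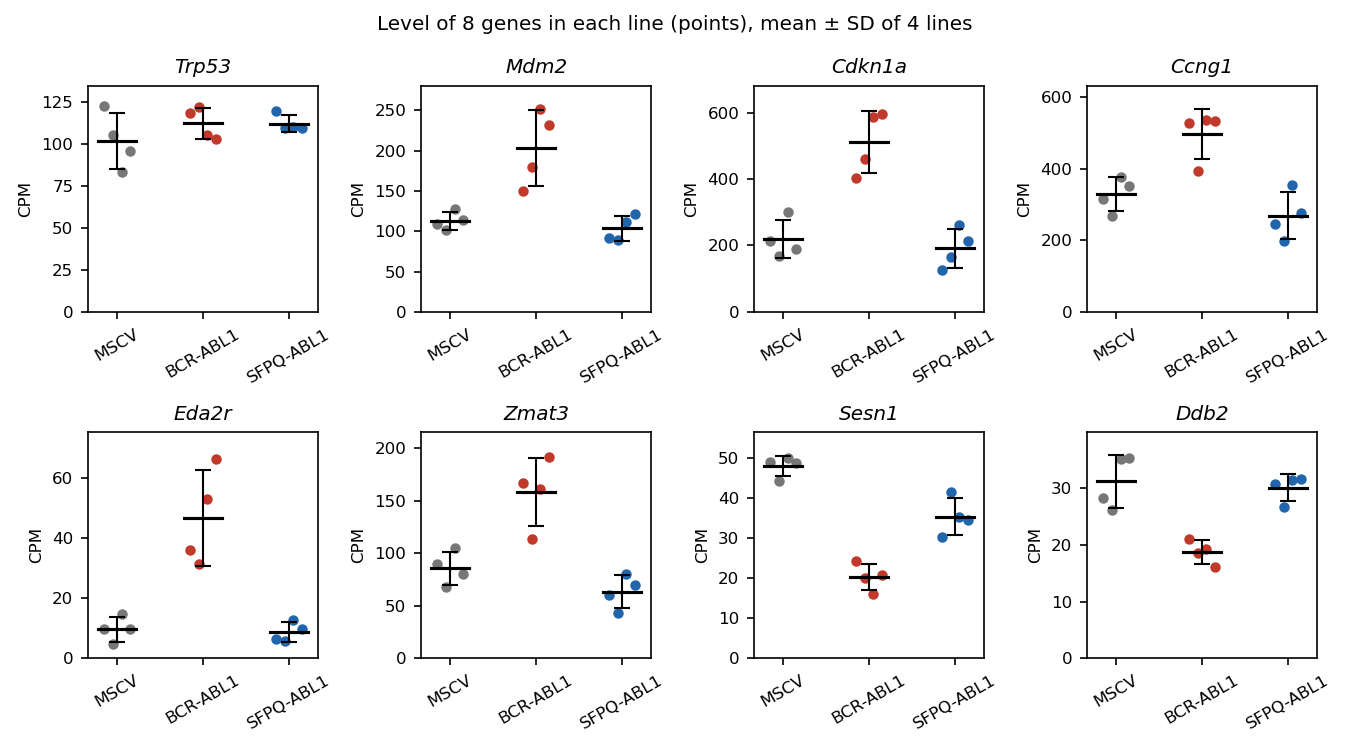
Level in CPM (y axis, from 0) of 8 genes in each line, one point per line, with the mean (bar) and SD of the 4 lines of each group. Trp53 overlaps between all groups, 5 genes are higher in the BCR-ABL1 lines without overlap, and Sesn1 and Ddb2 are lower there.

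Genes of cell cycle arrest and growth were higher in BCR-ABL1 than in MSCV lines in 4 of 7 cases and lower in 0. Among all genes tested, 15.8% were called higher and 16.3% lower. The 4 include Gdf15, whose call was partly fixed by the filter. Cdkn1a (ENSMUSG00000023067, chr17:29090976-29100727, plus strand), which encodes the cyclin-dependent kinase inhibitor p21 and is the standard reporter of p53 activity, stood at 214, 168, 299 and 190.4 CPM in MSCV lines 1 to 4, at 403, 459.8, 585 and 595 CPM in BCR-ABL1 lines 1 to 4 and at 125, 166, 261 and 213 CPM in SFPQ-ABL1 lines 1 to 4. The lowest BCR-ABL1 line was above the highest line of either other group. Cdkn1a rose 2.34-fold over MSCV (log2 1.23 ± 0.23 SE, adjusted p = 0.00147), and it was 2.67-fold lower in SFPQ-ABL1 than in BCR-ABL1 lines (log2 -1.42 ± 0.23 SE, adjusted p = 0.000975). SFPQ-ABL1 and MSCV lines overlapped (interval of the log2 difference -0.679 to 0.299). An unclassified transcript on the other strand, AC167363.2, shares 273 exonic bases, 7.7% of those of Cdkn1a. It had 1541 counts against 261557 for Cdkn1a over the 12 libraries and was not called (adjusted p = 0.927 in BCR-ABL1 against MSCV lines).

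Ccng1, which encodes cyclin G1 and is a target that recruits a phosphatase to Mdm2, stood at 317, 267, 377 and 353 CPM in MSCV lines 1 to 4, at 528, 394, 536 and 533 CPM in BCR-ABL1 lines 1 to 4 and at 247, 199, 354 and 277 CPM in SFPQ-ABL1 lines 1 to 4. BCR-ABL1 line 2 was far below the other lines of its group and only just above the highest MSCV line. Ccng1 rose 1.51-fold over MSCV (log2 0.60 ± 0.17 SE, adjusted p = 0.0159) and was 1.85-fold lower in SFPQ-ABL1 than in BCR-ABL1 lines (adjusted p = 0.00247). Btg2, an antiproliferative factor that also responds to growth signals, stood at 21.8, 31.1, 35.3 and 16.8 CPM in MSCV lines 1 to 4, at 33.2, 59.4, 91.0 and 46.9 CPM in BCR-ABL1 lines 1 to 4 and at 14.7, 15.7, 21.4 and 19.4 CPM in SFPQ-ABL1 lines 1 to 4. BCR-ABL1 line 1 was below MSCV line 3, so these groups overlapped, while every BCR-ABL1 line was above every SFPQ-ABL1 line. Btg2 rose 2.19-fold over MSCV (log2 1.13 ± 0.29 SE, adjusted p = 0.00905) and was 3.24-fold lower in SFPQ-ABL1 lines than in BCR-ABL1 lines (log2 -1.70 ± 0.29 SE, adjusted p = 0.00137).

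Gdf15, which encodes a secreted stress cytokine, was rare in all groups and gave the largest ratio of the members. It stood at 0.101, 0.0269, 0.0132 and 0.0307 CPM in MSCV lines 1 to 4, at 1.01, 0.507, 2.44 and 2.42 CPM in BCR-ABL1 lines 1 to 4 and at 0, 0.0260, 0.0973 and 0.131 CPM in SFPQ-ABL1 lines 1 to 4. All 4 BCR-ABL1 lines were above all others, with lines 3 and 4 above lines 1 and 2. In counts these levels came to 429 over the BCR-ABL1 lines and 13 over the MSCV lines, a ratio of 35.0 after scaling to library size, with a counting interval of 20.3 to 66.3 (95%, exact, counting error only). No p is given for Gdf15, since it entered the test only through the group where it was high. Without MSCV line 1, which held most of the MSCV counts, the fitted ratio was 63.9.

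Plk3, a stress-responsive kinase, stood at 8.32, 7.42, 7.84 and 6.40 CPM in MSCV lines 1 to 4, at 11.1, 7.65, 10.8 and 9.14 CPM in BCR-ABL1 lines 1 to 4 and at 6.46, 6.72, 6.30 and 5.13 CPM in SFPQ-ABL1 lines 1 to 4. BCR-ABL1 line 2 lay within the MSCV range, and all 4 SFPQ-ABL1 lines were below all BCR-ABL1 lines. Plk3 was 1.57-fold lower in SFPQ-ABL1 than in BCR-ABL1 lines (log2 -0.65 ± 0.15 SE, adjusted p = 0.00693) and was not called against MSCV (adjusted p = 0.0758). Plk2, a kinase of the same family, was between 0 and 0.657 CPM. DESeq2 but not the main edgeR fit called Plk2 higher in SFPQ-ABL1 than in BCR-ABL1 lines (adjusted p = 0.0306 and 0.0647). With no filter on low counts edgeR called it too (adjusted p = 0.0463). Without SFPQ-ABL1 line 2, which had no Plk2 count, edgeR gave adjusted p = 0.00534 in that comparison and 0.0348 for the lower level in BCR-ABL1 than in MSCV lines. Ckap2, a spindle protein, was at 46.3 ± 8.80 CPM in MSCV, 45.8 ± 4.80 CPM in BCR-ABL1 and 45.3 ± 1.32 CPM in SFPQ-ABL1 lines, and its intervals lay within -0.281 to 0.254, -0.298 to 0.237 and -0.284 to 0.250 on the log2 scale.

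Among the 11 tested genes of death and survival signalling, 4 rose in BCR-ABL1 lines against MSCV and 0 fell. Between the fusions 6 were lower and 0 higher in SFPQ-ABL1 than in BCR-ABL1 lines. Among all genes, 15.8% rose and 16.3% fell against MSCV, and 12.8% were lower and 13.2% higher between the fusions. Eda2r, the receptor for ectodysplasin A2, stood at 9.63, 4.61, 14.8 and 9.91 CPM in MSCV lines 1 to 4, at 36.1, 31.4, 52.9 and 66.5 CPM in BCR-ABL1 lines 1 to 4 and at 6.31, 5.74, 12.8 and 9.91 CPM in SFPQ-ABL1 lines 1 to 4. The BCR-ABL1 lines were far above all lines of the other groups, with lines 3 and 4 the highest. Eda2r rose 4.80-fold over MSCV (log2 2.26 ± 0.36 SE, adjusted p = 0.00051) and was 5.38-fold lower in SFPQ-ABL1 lines than in BCR-ABL1 lines (log2 -2.43 ± 0.36 SE, adjusted p = 0.000582). Aen, an exonuclease that digests DNA in dying cells, stood at 37.1, 25.7, 21.8 and 19.2 CPM in MSCV lines 1 to 4, at 68.7, 51.7, 71.6 and 62.3 CPM in BCR-ABL1 lines 1 to 4 and at 41.8, 29.0, 30.2 and 27.7 CPM in SFPQ-ABL1 lines 1 to 4. The BCR-ABL1 lines were all above the others, and line 1 was the highest of both other groups. Aen rose 2.45-fold over MSCV (log2 1.29 ± 0.20 SE, adjusted p = 0.000405) and was 1.98-fold lower in SFPQ-ABL1 lines than in BCR-ABL1 lines (adjusted p = 0.00312).

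Zmat3, an RNA-binding protein that controls splicing and mRNA stability downstream of p53, stood at 89.8, 67.7, 105 and 80.5 CPM in MSCV lines 1 to 4, at 167, 113, 161 and 192 CPM in BCR-ABL1 lines 1 to 4 and at 59.8, 43.1, 80.1 and 69.4 CPM in SFPQ-ABL1 lines 1 to 4. BCR-ABL1 line 2 was the lowest of its group and still above all MSCV lines, and SFPQ-ABL1 line 2 was the lowest of all. Zmat3 rose 1.84-fold over MSCV (log2 0.88 ± 0.20 SE, adjusted p = 0.00457) and was 2.50-fold lower in SFPQ-ABL1 than in BCR-ABL1 lines (log2 -1.32 ± 0.20 SE, adjusted p = 0.000646). Phlda3, which competes with the kinase Akt for membrane lipids, stood at 15.1, 13.7, 14.7 and 12.4 CPM in MSCV lines 1 to 4, at 24.1, 16.0, 32.5 and 25.3 CPM in BCR-ABL1 lines 1 to 4 and at 9.12, 9.18, 13.4 and 10.01 CPM in SFPQ-ABL1 lines 1 to 4. BCR-ABL1 line 2 was only just above the highest MSCV line. Phlda3 rose 1.75-fold over MSCV (adjusted p = 0.00578) and was 2.35-fold lower in SFPQ-ABL1 lines than in BCR-ABL1 lines (adjusted p = 0.000746).

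Fas and Trp53inp1 were called between the fusions and missed the threshold against MSCV in the main edgeR fit. Fas, the death receptor, stood at 1.71, 2.25, 3.45 and 3.42 CPM in MSCV lines 1 to 4, at 4.15, 4.63, 3.43 and 4.04 CPM in BCR-ABL1 lines 1 to 4 and at 0.844, 1.01, 1.62 and 1.88 CPM in SFPQ-ABL1 lines 1 to 4. The SFPQ-ABL1 lines were all below the BCR-ABL1 lines, and the MSCV lines lay between and overlapped both. Fas was 3.04-fold lower in SFPQ-ABL1 than in BCR-ABL1 lines (log2 -1.60 ± 0.29 SE, adjusted p = 0.00169), with adjusted p = 0.125 for BCR-ABL1 and 0.0865 for SFPQ-ABL1 against MSCV by edgeR. For SFPQ-ABL1 against MSCV the 95% interval of the log2 difference was -1.631 to -0.402, and DESeq2 gave adjusted p = 0.00966. Trp53inp1, a nuclear protein that aids p53 and autophagy, stood at 80.6, 54.3, 108 and 96.5 CPM in MSCV lines 1 to 4, at 103, 84.3, 99.4 and 112 CPM in BCR-ABL1 lines 1 to 4 and at 25.8, 41.7, 62.0 and 54.5 CPM in SFPQ-ABL1 lines 1 to 4. BCR-ABL1 and MSCV lines overlapped, and SFPQ-ABL1 line 1 was the lowest of all 12. Trp53inp1 was 2.17-fold lower in SFPQ-ABL1 than in BCR-ABL1 lines (log2 -1.11 ± 0.25 SE, adjusted p = 0.0058). Against MSCV the SFPQ-ABL1 lines were at log2 -0.88 (95% interval -1.413 to -0.348, adjusted p = 0.0865, and 0.0142 with DESeq2).

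The other 5 tested genes of this role were not called in any comparison. Apaf1, the scaffold of the apoptosome, was at 209.9 ± 38.8 CPM in MSCV, 202 ± 19.7 CPM in BCR-ABL1 and 199.5 ± 29.3 CPM in SFPQ-ABL1 lines. Pidd1, a scaffold for caspase activation, was at 29.6 ± 4.39 CPM in MSCV, 37.4 ± 11.2 CPM in BCR-ABL1 and 31.4 ± 2.49 CPM in SFPQ-ABL1 lines. Its BCR-ABL1 lines were widely spread, and without line 2 it was called higher than in MSCV lines (adjusted p = 0.0379). Ei24, an endoplasmic reticulum protein, was at 130.0 ± 4.43 CPM in MSCV, 145 ± 18.1 CPM in BCR-ABL1 and 124 ± 9.87 CPM in SFPQ-ABL1 lines, and Tnfrsf10b, the mouse death receptor for the ligand TRAIL, at 8.77 ± 1.21 CPM in MSCV, 7.38 ± 0.509 CPM in BCR-ABL1 and 8.03 ± 0.411 CPM in SFPQ-ABL1 lines. Dram1, a lysosomal membrane protein linked to autophagy, was between 0.107 and 0.603 CPM. Without SFPQ-ABL1 line 3 it was called lower in SFPQ-ABL1 than in BCR-ABL1 lines (adjusted p = 0.043).

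Genes of DNA repair and nucleotide supply, with which the ribosomal protein gene Rps27l was grouped, moved in both directions. In BCR-ABL1 lines against MSCV, 2 of 5 rose and 2 fell, beside 15.8% higher and 16.3% lower among all genes. Ddb2, the damage-binding subunit of global nucleotide excision repair, stood at 28.3, 26.2, 35.1 and 35.2 CPM in MSCV lines 1 to 4, at 21.1, 18.6, 19.3 and 16.0 CPM in BCR-ABL1 lines 1 to 4 and at 30.7, 26.6, 31.4 and 31.6 CPM in SFPQ-ABL1 lines 1 to 4. All 4 BCR-ABL1 lines were below all lines of the other groups. Ddb2 was 1.66-fold lower in BCR-ABL1 lines than in MSCV lines (log2 -0.73 ± 0.12 SE, adjusted p = 0.00066) and 1.60-fold higher in SFPQ-ABL1 than in BCR-ABL1 lines (adjusted p = 0.00158). Acp2, on the opposite strand, shares 652 exonic bases with Ddb2, 23.8% of its exonic length, and strand use in counting is not given in the sources used here. Acp2 was not called in BCR-ABL1 against MSCV lines (log2 -0.20 ± 0.11 SE, adjusted p = 0.192).

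Xpc, which recognises lesions in the same repair pathway, stood at 42.4, 39.2, 44.2 and 49.4 CPM in MSCV lines 1 to 4, at 35.0, 27.4, 24.6 and 27.2 CPM in BCR-ABL1 lines 1 to 4 and at 37.1, 36.6, 44.4 and 39.7 CPM in SFPQ-ABL1 lines 1 to 4. The BCR-ABL1 lines were the lowest, with line 1 closest to the others. Xpc was 1.53-fold lower in BCR-ABL1 lines than in MSCV lines (log2 -0.62 ± 0.12 SE, adjusted p = 0.00157) and 1.38-fold higher in SFPQ-ABL1 than in BCR-ABL1 lines (adjusted p = 0.011). Polk, a DNA polymerase that copies past lesions, stood at 13.6, 12.7, 21.1 and 19.1 CPM in MSCV lines 1 to 4, at 23.0, 30.6, 36.8 and 32.4 CPM in BCR-ABL1 lines 1 to 4 and at 11.2, 14.5, 15.9 and 18.7 CPM in SFPQ-ABL1 lines 1 to 4. All BCR-ABL1 lines were above the others, by a narrow gap between BCR-ABL1 line 1 and MSCV line 3. Polk rose 1.85-fold over MSCV (log2 0.89 ± 0.20 SE, adjusted p = 0.00455) and was 2.04-fold lower in SFPQ-ABL1 than in BCR-ABL1 lines (adjusted p = 0.00271).

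Rrm2b, the p53-inducible subunit of ribonucleotide reductase, which makes deoxynucleotides, stood at 17.2, 14.2, 15.8 and 17.3 CPM in MSCV lines 1 to 4, at 19.3, 27.4, 20.9 and 34.8 CPM in BCR-ABL1 lines 1 to 4 and at 16.2, 18.2, 15.3 and 18.3 CPM in SFPQ-ABL1 lines 1 to 4. BCR-ABL1 line 4 was the highest, and line 1 stood just above the highest line of the other groups. Rrm2b rose 1.59-fold over MSCV (log2 0.67 ± 0.16 SE, adjusted p = 0.0076) and was 1.51-fold lower in SFPQ-ABL1 than in BCR-ABL1 lines (adjusted p = 0.0187). The latter call was lost without BCR-ABL1 line 4 (adjusted p = 0.0528) and without SFPQ-ABL1 line 3 (adjusted p = 0.0596). Rps27l is a ribosomal protein with a close paralogue, Rps27, and how reads that match both were counted is not given in the sources used here. It was at 154 ± 27.3 CPM in MSCV, 193 ± 25.2 CPM in BCR-ABL1 and 147 ± 17.0 CPM in SFPQ-ABL1 lines. Its SFPQ-ABL1 and BCR-ABL1 lines did not overlap, and adjusted p was 0.0516 with edgeR and 0.0418 with DESeq2. Without MSCV line 2 it was called higher in BCR-ABL1 than in MSCV lines (adjusted p = 0.0419).

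Of the genes of metabolism, redox and nutrient response, 3 of 5 were tested, and 1 rose and 2 fell in BCR-ABL1 lines against MSCV. Shares among all genes in that comparison were 15.8% higher and 16.3% lower. Sesn1, a leucine-responsive inhibitor of the growth kinase complex mTORC1, stood at 48.9, 44.2, 49.98 and 48.6 CPM in MSCV lines 1 to 4, at 24.3, 20.1, 16.1 and 20.8 CPM in BCR-ABL1 lines 1 to 4 and at 30.2, 41.5, 35.4 and 34.5 CPM in SFPQ-ABL1 lines 1 to 4. The groups were fully ordered, with every BCR-ABL1 line below every SFPQ-ABL1 line and every SFPQ-ABL1 line below every MSCV line. Sesn1 fell by 1.24 on the log2 scale in BCR-ABL1 lines against MSCV (SE 0.13, adjusted p = 3.46e-05), the smallest adjusted p of the members. It was 1.74-fold higher in SFPQ-ABL1 than in BCR-ABL1 lines (log2 0.80 ± 0.12 SE, adjusted p = 0.000773). Against MSCV the SFPQ-ABL1 lines did not pass the threshold (log2 -0.44 ± 0.12 SE, adjusted p = 0.0886), and they did with DESeq2 (adjusted p = 0.0342) and without SFPQ-ABL1 line 2 (adjusted p = 0.0492).

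Tigar, a phosphatase that turns glycolysis towards NADPH production, stood at 3.84, 2.49, 1.71 and 2.52 CPM in MSCV lines 1 to 4, at 6.32, 6.07, 6.35 and 8.38 CPM in BCR-ABL1 lines 1 to 4 and at 5.29, 4.87, 3.24 and 3.29 CPM in SFPQ-ABL1 lines 1 to 4. All BCR-ABL1 lines were above the others, line 4 clearly so, and SFPQ-ABL1 lines 1 and 2 were above every MSCV line. Tigar rose 2.57-fold over MSCV (log2 1.36 ± 0.25 SE, adjusted p = 0.00125). Between the fusions adjusted p was 0.0501 with edgeR, 0.0193 with DESeq2 and 0.0309 with limma-voom (log2 -0.7 ± 0.24 SE). Fdxr, a mitochondrial ferredoxin reductase, was at 32.2 ± 4.27 CPM in MSCV, 23.6 ± 3.40 CPM in BCR-ABL1 and 29.3 ± 2.52 CPM in SFPQ-ABL1 lines. It fell by 0.45 on the log2 scale in BCR-ABL1 lines against MSCV (SE 0.12, adjusted p = 0.0148), under the 1.5-fold set for giving every line. Between the fusions adjusted p was 0.0794, and 0.0413 without normalization factors.

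**Figure D3:**
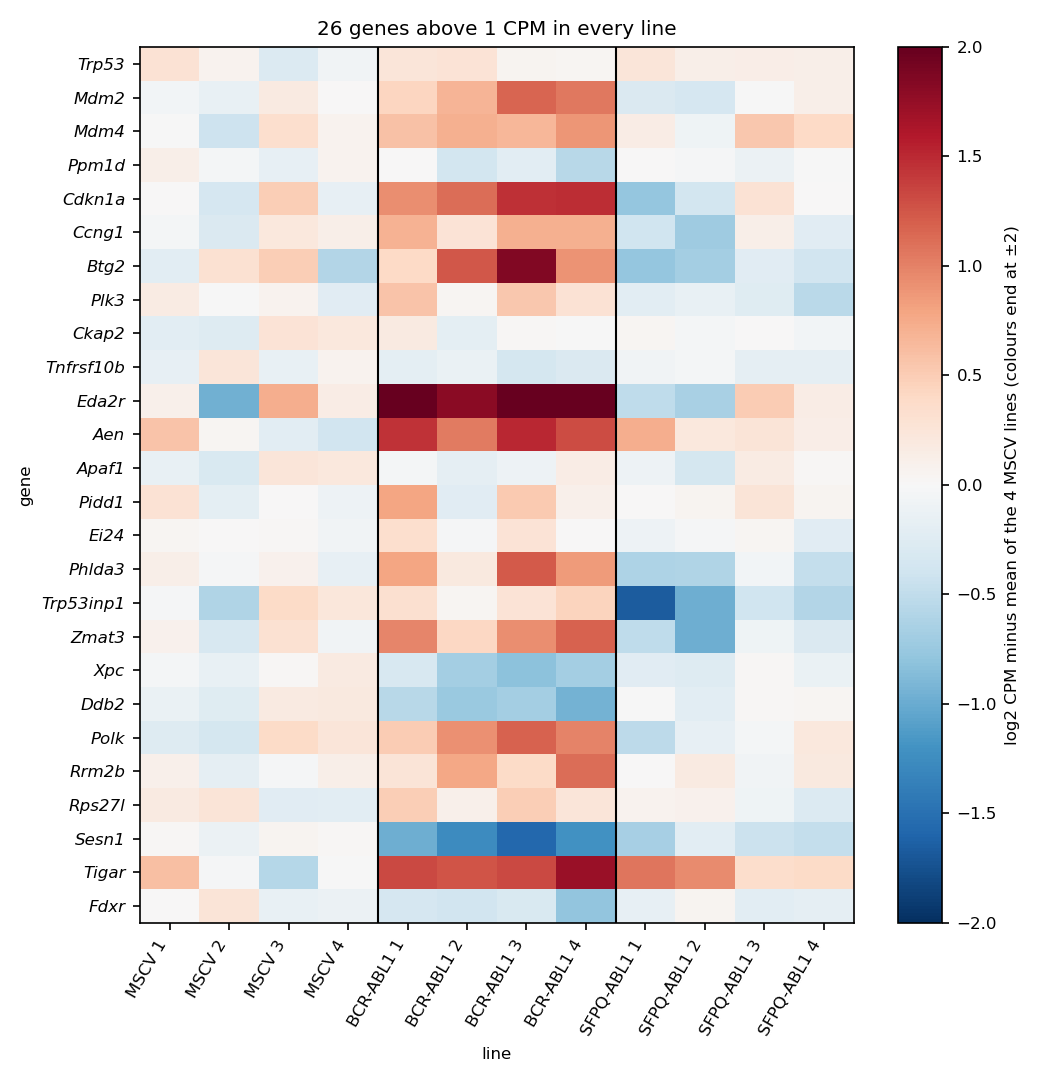
Log2 CPM of each of the 12 lines (columns) minus the mean of the 4 MSCV lines, for the 26 genes above 1 CPM in every line (rows, ordered by role); red is higher, blue lower, and colours end at 2 log2 units. The BCR-ABL1 block is red for most rows and blue for Sesn1, Xpc, Ddb2 and Fdxr, and its lines 1 and 2 are paler than lines 3 and 4 in several rows.

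Lines of a group tended to keep their ranks over the members that rose. Over the 13 members higher in BCR-ABL1 than in MSCV lines, BCR-ABL1 line 3 was the highest of its group in 7 and line 4 in 6, while line 2 was the lowest in 7 and line 1 in 6. In the MSCV group line 3 was the highest in 8 and line 2 the lowest in 8. In the SFPQ-ABL1 group line 3 was the highest in 7, and lines 1 and 2 were each the lowest in 5. These ranks are a description, since the genes of one line share its library. Without BCR-ABL1 line 4 and SFPQ-ABL1 line 2, 13 members were higher and 4 lower in BCR-ABL1 than in MSCV lines.

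Levels of different members can be set side by side only per length. The length used was all annotated exon bases of a gene, 3553 for Cdkn1a and 3512 for Ccng1. It can exceed the length of the transcripts in use, so ranks between genes depend on this choice. Per kilobase of exon, the highest members in MSCV lines were Rps27l at 189 CPM (with the limit on its paralogue given above), Ccng1 at 93.6 and Cdkn1a at 61.4, and Trp53 and Mdm2 were at 25.2 and 22.2. In BCR-ABL1 lines Rps27l was at 237, Cdkn1a at 144, Ccng1 at 142 and Mdm2 at 40.0 CPM per kilobase. On this measure Cdkn1a passed from below Ccng1 in MSCV lines to about its level in BCR-ABL1 lines. Eda2r was at 1.65 CPM per kilobase in MSCV and 7.93 in BCR-ABL1 lines, where it stood below Aen at 10.96 and above Ddb2 at 6.85.

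Exon counts showed where along the gene the difference lay, as a description with no test. They hold only part of the reads, 16.7% to 19.7% of the gene total by library, and are given in CPM of the gene total. The part of a gene's own counts was larger in Cdkn1a-201 than in Mdm2-201 or Trp53-201. What selected these reads is not given in the sources used here. Groups are therefore compared within the same exon, and levels of different genes are not compared by exon counts. All 3 exons of Cdkn1a-201, the transcript from the downstream start, were higher in BCR-ABL1 than in MSCV lines, by 2.15 to 2.43 times in mean level. Its exon 2 is also exon 2 of Cdkn1a-202, and its exon 3 contains exon 3 of Cdkn1a-202. Only exon 1, at 2.15 times, is not shared between these transcripts. The first exon of Cdkn1a-202 begins at the upstream start, next to the half-sites shown above. It had 7, 6, 17 and 7 counts in MSCV lines 1 to 4, 12, 29, 35 and 43 counts in BCR-ABL1 lines and 1, 4, 8 and 8 counts in SFPQ-ABL1 lines. The mean level was 3.44 times higher in BCR-ABL1 than in MSCV lines, with BCR-ABL1 line 1 below MSCV line 3. The first exon of Cdkn1a-201 had 241 counts in BCR-ABL1 lines and 119 in MSCV lines, so both start sites carried reads in both groups. In Mdm2-201, all 10 exons with at least 20 counts in MSCV lines were higher in BCR-ABL1 lines, by 1.61 to 3.41 times. Of these 10, the last exon, of 1911 bases, had the smallest ratio, and exons 2 and 3 the largest. Below that cutoff, exon 1, at the start site of the window shown, had 11 counts in MSCV lines. In BCR-ABL1 lines it had 7 counts, all in line 3. Exon 6, also below it, had 11 counts in MSCV and 49 in BCR-ABL1 lines. Exon 2 rested on 22 counts in MSCV and 70 in BCR-ABL1 lines, with BCR-ABL1 line 2 at 7 counts within the MSCV range of 4 to 8. In Trp53-201 the ratio lay between 0.95 and 1.57 in 10 exons and was above 1 in 9 of them.

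**Figure D4:**
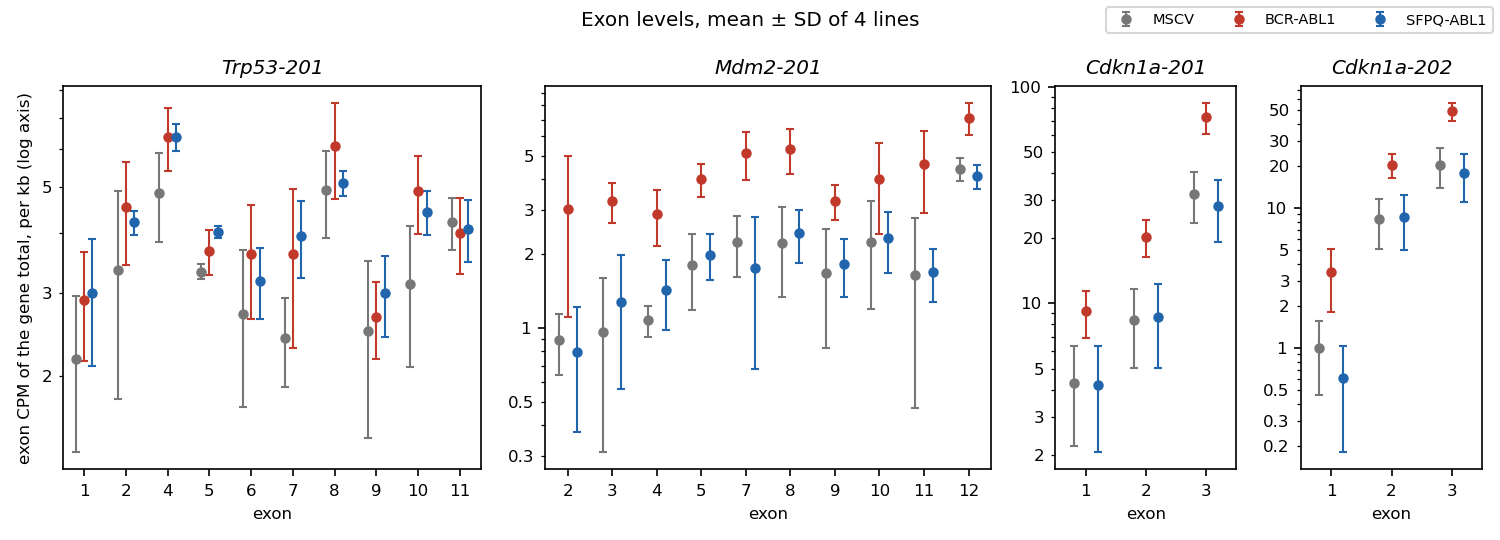
Exon level in CPM of the gene total per kilobase (log axis) by exon number for 4 transcripts, mean ± SD of the 4 lines of each group, for exons with at least 20 counts in MSCV lines. The BCR-ABL1 means of Cdkn1a and Mdm2 are above both other groups in every exon shown, and in Trp53 the error bars of BCR-ABL1 and MSCV lines overlap in every exon shown.

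Of 19 tested regulators of p53 outside the 33 genes, 2 (10.5%) rose and 1 (5.26%) fell in BCR-ABL1 lines against MSCV, where 15.8% of all genes rose and 16.3% fell. An unadjusted p under 0.05 was reached by 8, and the median log2 fold change was 0.167. Atr, the kinase of the replication stress checkpoint, was at 76.2 ± 14.0 CPM in MSCV, 143 ± 28.1 CPM in BCR-ABL1 and 89.3 ± 11.6 CPM in SFPQ-ABL1 lines (1.88-fold higher in BCR-ABL1 than in MSCV lines, adjusted p = 0.00104). Npm1, a nucleolar protein that holds Mdm2 and Arf, was at 471 ± 80.8 CPM in MSCV, 719 ± 70.6 CPM in BCR-ABL1 and 426 ± 92.2 CPM in SFPQ-ABL1 lines (1.53-fold higher, adjusted p = 0.00881). Chek2, the checkpoint kinase that phosphorylates p53, was at 45.8 ± 8.45 CPM in MSCV, 29.6 ± 3.002 CPM in BCR-ABL1 and 46.1 ± 5.61 CPM in SFPQ-ABL1 lines (1.55-fold lower, adjusted p = 0.00357). Rpl5, a ribosomal protein that binds Mdm2, missed the threshold (adjusted p = 0.0543). Between the fusions these 3 genes were called in the opposite direction, with Chek2 higher and Atr and Npm1 lower in SFPQ-ABL1 lines, and against MSCV the SFPQ-ABL1 lines gave 0 calls, 2 at unadjusted p under 0.05. The 4 smallest adjusted p there were 0.235 for Usp7, 0.254 for Hipk2, 0.286 for Usp10 and 0.289 for Sirt1.

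Of 20 tested further p53 targets, 8 (40.0%) rose and 4 fell in BCR-ABL1 lines against MSCV, where 15.8% of all genes rose and 16.3% fell. Between the fusions 9 (45.0%) were lower and 1 (5.0%) higher in SFPQ-ABL1 lines, against 12.8% lower and 13.2% higher among all genes. The median log2 fold changes were 0.356 and -0.54. The 4 that fell became 2 in most fits that left out 1 line, among them those without MSCV line 1 or BCR-ABL1 line 4. The 8 that rose became 6 or 7 in most such fits, among them 6 without MSCV line 2 and 7 without BCR-ABL1 line 4. Bbc3, which encodes the death-inducing protein Puma, was at 41.9 ± 8.55 CPM in MSCV, 90.6 ± 25.7 CPM in BCR-ABL1 and 23.9 ± 5.82 CPM in SFPQ-ABL1 lines. It was 3.79-fold lower in SFPQ-ABL1 than in BCR-ABL1 lines (log2 -1.92 ± 0.23 SE, adjusted p = 0.000189). Sesn2, a paralogue of Sesn1 that ATF4 also controls, was at 70.2 ± 10.5 CPM in MSCV, 180.4 ± 25.8 CPM in BCR-ABL1 and 76.2 ± 7.24 CPM in SFPQ-ABL1 lines, and it rose 2.57-fold over MSCV (adjusted p = 2.18e-05) where Sesn1 fell. Slc19a2, a thiamine transporter, rose 2.21-fold (adjusted p = 4.77e-05). Abhd4, a lipid hydrolase, and Tap1, a peptide transporter for antigen presentation, were 1.99-fold and 1.92-fold lower in BCR-ABL1 than in MSCV lines (adjusted p = 0.000108 and 0.000374). Ercc5, a repair nuclease, was 1.57-fold lower in SFPQ-ABL1 than in BCR-ABL1 lines (adjusted p = 0.00162). SFPQ-ABL1 against MSCV lines gave 0 calls in the main edgeR fit and 6 genes at unadjusted p under 0.05, and DESeq2 called 3 lower.

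Cell division genes that p53 is known to lower through Cdkn1a and the DREAM repressor complex were taken as a further list. Of 18, 5 (27.8%) fell (Birc5, Ccnb2, Cdc20, Cdc25c and Plk1) and 2 (11.1%) rose (Plk4 among them) in BCR-ABL1 lines against MSCV, beside 16.3% lower and 15.8% higher among all genes. Their median log2 fold change was -0.089. Ccnb2, a mitotic cyclin, was at 231 ± 26.7 CPM in MSCV, 145 ± 22.4 CPM in BCR-ABL1 and 186 ± 9.37 CPM in SFPQ-ABL1 lines (1.59-fold lower in BCR-ABL1 than in MSCV lines, adjusted p = 0.000877). Cdc20, an activator of the anaphase-promoting complex, was at 153 ± 12.5 CPM in MSCV, 107 ± 5.91 CPM in BCR-ABL1 and 142 ± 7.74 CPM in SFPQ-ABL1 lines (1.43-fold lower, adjusted p = 0.000516). Plk4, the kinase of centriole duplication, was at 69.8 ± 9.72 CPM in MSCV, 104 ± 9.85 CPM in BCR-ABL1 and 83.8 ± 4.94 CPM in SFPQ-ABL1 lines (1.49-fold higher, adjusted p = 0.00141). Between the fusions 4 were higher and 1 lower in SFPQ-ABL1 lines, and the 4 became 1 without BCR-ABL1 line 3, BCR-ABL1 line 4 or SFPQ-ABL1 line 1. SFPQ-ABL1 against MSCV lines gave 0 calls and 4 genes at unadjusted p under 0.05. None of the 5 that fell passed a test against a 1.5-fold change.

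The ATF4 response, which cells start when amino acids run short or protein folding fails, moved in the same groups. Of 15 genes listed for it, 12 were tested. All 12 rose in BCR-ABL1 lines against MSCV, and all 12 were lower in SFPQ-ABL1 than in BCR-ABL1 lines. The median log2 fold changes were 2.117 and -1.892, beside 15.8% of all genes higher and 12.8% lower in these comparisons. Cth was at 0.105 ± 0.0695 CPM in MSCV, 0.293 ± 0.395 CPM in SFPQ-ABL1 and 2.29 ± 0.857 CPM in BCR-ABL1 lines. It may have passed the filter only through the BCR-ABL1 lines, which would partly fix its calls. Trib3, a pseudokinase, was at 27.1 ± 9.35 CPM in MSCV, 349 ± 136 CPM in BCR-ABL1 and 35.9 ± 15.1 CPM in SFPQ-ABL1 lines. Ddit3, which encodes the stress factor Chop, was at 22.3 ± 6.26 CPM in MSCV, 135 ± 32.8 CPM in BCR-ABL1 and 20.5 ± 7.42 CPM in SFPQ-ABL1 lines, and Asns, asparagine synthetase, at 88.5 ± 30.6 CPM in MSCV, 386 ± 29.3 CPM in BCR-ABL1 and 112 ± 16.9 CPM in SFPQ-ABL1 lines. Against MSCV the SFPQ-ABL1 lines gave 0 calls and 3 genes at unadjusted p under 0.05. Several genes are known to answer to both p53 and ATF4, Sesn2 and Gdf15 among them, and the part of ATF4 in the levels of the 33 genes was not tested. The summed level of 11 granulocyte and monocyte markers also moved with the group, from 444 to 1120 CPM in MSCV and 549 to 817 CPM in SFPQ-ABL1 lines to 215 to 382 CPM in BCR-ABL1 lines. Of these markers 4 were at or above 1 CPM in MSCV and 5 in BCR-ABL1 lines, while Ctsg and Ly6g were at 0 in MSCV lines. Most of the sum came from Ms4a3, at a mean of 574 CPM in MSCV and 223 CPM in BCR-ABL1 lines, and Prtn3, at 227 and 51.4 CPM, while Itgam went the other way, from 0.225 to 1.34 CPM. Markers of other lineages moved in both directions as well. Mean levels in MSCV and BCR-ABL1 lines were 600.0 and 193 CPM for Hba-a1, 57.4 and 21.7 CPM for Klf1, 93.4 and 42.5 CPM for Cd79a, 0.125 and 6.88 CPM for Pf4, and 0.209 and 13.1 CPM for Cpa3, the last with a range of 0.876 to 42.2 CPM over the BCR-ABL1 lines. The summed levels of the 8 erythroid and megakaryocyte markers overlapped, at 1490 to 2480 CPM in MSCV and 1280 to 2010 CPM in BCR-ABL1 lines. The part of these markers in the results was not tested. In bulk RNA a gene active in fewer cells and less RNA of it per cell cannot be told apart.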

How the data were processed

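RNA sequencing covered 12 Ba/F3 lines, 4 in each of 3 groups assigned by the labels' genotype. Per the labels' protocols, a PureLink kit was used to extract RNA. The deposited values are raw gene counts and raw exon counts, one column a line. The submitters' processing notes name Subread, featureCounts and mm10. Tool versions, annotation, strand use and rules for multi-mapping reads were not given in the sources used here. Where counting ignored strand, a gene and an antisense partner share reads. Reads carry no molecular identifiers, so intervals from counts cover counting error only.

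Symbols and coordinates came from GENCODE M21, which held 55230 of the 55471 gene identifiers. Counts were fitted in R 4.3.3 with edgeR 4.0.16 (TMM scaling, filterByExpr, glmQLFit and glmQLFTest on all 12 libraries), with Benjamini-Hochberg adjustment over the 17197 genes tested and a call at adjusted p under 0.05. Levels are TMM-scaled CPM. Error bars and ± values on levels are SD over 4 lines, and 95% intervals come from the same fit. Alternatives used DESeq2 1.42.0, limma 3.58.1 (voom), other scalings and filters, a replicate block and leaving out lines. Of 18 pairs of lines within a group none held the same counts (chi-square per degree of freedom 33.1 to 182).

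The 33 genes and all gene lists were chosen with earlier results of these data known. Values of every line are given for Trp53, Mdm2, Mdm4, Cdkn1a and members called with at least a 1.5-fold change, and of each further list up to 4 genes with the smallest adjusted p per comparison. Promoter sequences are RefSeq's on GRCm38.p6, and half-sites were exact matches of the p53 consensus. Some genes of the lists are counted but not reported here by name.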

Additional observations from a re-analysis of the deposited data

Results flagged for a closer look

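In 4 groups of 4 lines, 1 line stood apart from the other 3, whose values lay close together (Dixon's ratio at the 95% level). Over the 90 groups tested, chance flags about 1 in 20. Trp53 was at 119.8 CPM in SFPQ-ABL1 line 1 and at 109.5 to 110.3 CPM in the other SFPQ-ABL1 lines. Ccng1 was at 393.9 CPM in BCR-ABL1 line 2 and at 527.6 to 536.1 CPM in the other BCR-ABL1 lines. Tigar was at 8.381 CPM in BCR-ABL1 line 4 and at 6.071 to 6.347 CPM in the others of its group. Fdxr was at 33.07 CPM in SFPQ-ABL1 line 2 and at 27.56 to 28.49 CPM in the others of its group.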

How the results depend on the processing

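Each of the 30 members was refitted in 3 comparisons under up to 22 alternatives, which gave 1968 values. Of these, 1898 kept their direction and their side of the threshold, 24 lost a call, 46 gained one and 0 reversed. Between the fusions, Tigar was called without MSCV line 1, MSCV line 3 or SFPQ-ABL1 line 1, Mdm4 without MSCV line 2, MSCV line 3 or SFPQ-ABL1 line 3, and Rps27l without BCR-ABL1 line 2 or without either of MSCV lines 2 and 3. Plk3 was called higher in BCR-ABL1 than in MSCV lines without BCR-ABL1 line 2 (adjusted p = 0.0329). Rrm2b also lost its call between the fusions without BCR-ABL1 line 4 and SFPQ-ABL1 line 2 together (adjusted p = 0.0556), an alternative chosen after seeing the data.

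In the test against a 1.5-fold change, 5 members were higher and 1 lower in BCR-ABL1 than in MSCV lines, and 0 higher and 7 lower in SFPQ-ABL1 than in BCR-ABL1 lines. The same test left 0 regulators in either direction in both comparisons, and 2 further targets higher and 1 lower in BCR-ABL1 than in MSCV lines, with 0 higher and 3 lower between the fusions. It left 0 DREAM targets in either direction in both comparisons. This test asks for a larger change by construction. For SFPQ-ABL1 against MSCV lines, in place of 0 members, DESeq2 called 3 lower, the replicate block 3 lower (Fas, Trp53inp1 and Zmat3), and the fit with no filter on low counts 1 lower. Further targets gave 3 lower with DESeq2, 2 with the replicate block and 2 with no filter, and the ATF4 list 1 higher with DESeq2 and 1 with no filter.

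The replicate block called 15 members higher and 4 lower in BCR-ABL1 than in MSCV lines, and 4 higher and 17 lower between the fusions. It called 5 regulators higher and 2 lower in BCR-ABL1 than in MSCV lines, and 2 higher between the fusions. The labels give same-numbered lines only a number in common, so the block is no part of the design. Of 12 same-numbered pairs, 7 had a correlation over 0.1 (range -0.00632 to 0.385). Each line was also set against the 4 lines of each other group. It correlated best with its own number in 12 of 24 cases, where chance would give 1 in 4. Whether same-numbered lines share an effect was not tested. DESeq2 called 4 regulators higher in BCR-ABL1 than in MSCV lines and 2 higher between the fusions. With no normalization factors, and with at least 1 CPM in 4 libraries, 2 regulators were lower in BCR-ABL1 than in MSCV lines and 2 higher between the fusions, where the fit of 8 libraries also gave 2 higher. In that fit of 8 libraries, and without BCR-ABL1 line 4 and SFPQ-ABL1 line 2, 2 further targets were lower in BCR-ABL1 than in MSCV lines. With no normalization factors 2 further targets were higher between the fusions. Further targets higher in BCR-ABL1 than in MSCV lines numbered 7 with no normalization factors, no filter or limma-voom, and 9 with the replicate block. DREAM targets higher in BCR-ABL1 than in MSCV lines numbered 1 with no normalization factors, no filter or limma-voom. Without BCR-ABL1 line 4 and SFPQ-ABL1 line 2, 1 DREAM target was higher between the fusions. The DREAM target lower between the fusions fell to 0 with that change, no normalization factors, no filter or limma-voom. The cause was not tested.

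When 1 line was left out, the members called lower in SFPQ-ABL1 than in MSCV lines ranged from 0 to 1 (Sesn1, without SFPQ-ABL1 line 2). Regulators in BCR-ABL1 against MSCV lines ranged from 2 to 4 higher (4 without MSCV line 1) and 1 to 2 lower, and between the fusions from 1 to 2 higher. Further targets ranged from 6 to 8 higher and from 2 to 4 lower in BCR-ABL1 against MSCV lines. They ranged from 0 to 1 lower in SFPQ-ABL1 against MSCV lines and from 1 to 2 higher between the fusions. DREAM targets ranged from 1 to 3 higher in BCR-ABL1 against MSCV lines, and between the fusions from 1 to 6 higher and 0 to 1 lower. The ATF4 list ranged from 0 to 1 higher in SFPQ-ABL1 against MSCV lines (1 without MSCV line 1). Depth limited Gdf15, Plk2, Dram1, Perp and Ephx1, whose levels rest on few counts.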
